A study of Mus musculus with 24 samples.

Results

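The zinc-finger genes described here are the expressed mouse genes whose symbol is Zfp followed by digits alone. They were chosen by 3 measures: a protein-coding biotype, such a symbol, and a mean of at least 5 CPM (counts scaled to a common library size) over all 24 libraries. Zfp36, an RNA-binding factor of another protein family, was left out. Of 55414 gene identifiers in the files, 373 carried such a symbol and 364 of these were protein-coding. A count above 0 was recorded for 337, and 242 reached the threshold. All 242 also passed the filter on low counts used for testing, which kept 16167 genes. The threshold used the level over all libraries, so the level itself is no finding. Just inside it were Zfp72 (mean 5.10 CPM) and Zfp759 (5.12), and just outside were Zfp960 (4.99) and Zfp58 (4.96).

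The cells were 32D, an established mouse line that depends on interleukin-3, given in the labels as lymphoblastocytes of bone marrow. The wild type (WT) was set beside KO1 and KO2, both labelled Nat10+/-, each of them a single clonal line whose label gives Nat10 deficiency; Nat10 writes N4-acetylcytidine onto RNA. Every culture had 10% serum and 10 ng/ml of interleukin-3, and every group, WT included, received actinomycin D at 0.05 µg/ml and was collected at 0, 3, 6 or 9 h. Each of the 12 groups had 2 libraries of polyadenylated RNA, so that a group is given by both values. The labels call the pairs biological replicates without saying how cultures were kept apart, so every p-value rests on the scatter of library pairs, part of which may be technical. The series was set up to measure how long mRNAs last with and without full Nat10.

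Proteins of this class fold short loops around zinc, each held by a pair of cysteines and a pair of histidines, and tandem arrays of such fingers read DNA sequence. Many carry a KRAB domain at the amino end, which recruits the corepressor Trim28 and with it histone methylation enzymes, and many of these silence retroelements. Others act as promoter-binding activators, or work on RNA, ribosomes, ubiquitin or the spindle. Actinomycin D intercalates into DNA and blocks RNA synthesis, at low doses mainly that of ribosomal RNA. mRNAs of zinc-finger regulators are known from other work as a class with short lives.

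Depth was even, at 15361601 to 17338939 gene counts per library, and 5 CPM corresponds to 76.8 to 86.7 counts. Nat10 itself stood at 111 and 113 CPM in WT at 0 h, 97.7 and 108 in KO1, and 95.1 and 99.2 in KO2, so the mRNA of the targeted gene was only slightly below the WT level in both clones, with no overlap. At 9 h it stood at 62.2 and 65.9 CPM in WT, 47.5 and 50.1 in KO1, and 47.1 and 47.4 in KO2. Blood markers summed to 372 to 1000 CPM in WT, 417 to 935 in KO1 and 388 to 889 in KO2, carried by Ptprc, Csf2rb, Spi1 and Il3ra. The progenitor genes Mpo, Elane and Cd34 were below 0.2 CPM at 0 h in each genotype, and Kit did not pass the filter. Krt8 and Krt18 were at 0 in all libraries, stromal markers summed to at most 6.07 CPM in WT and 1.08 in the clones, and erythroid markers to at most 26.5. The stromal sum lay mostly at WT 0 h, where the paired libraries had 51 and 28 counts of Bgn, 30 and 18 of Fn1 and 20 and 19 of Col1a1, while Bgn and Fn1 were at 0 in all libraries of WT at 3 h and of both clones at 0 h. Hbb-bs, a globin gene, differed between genotypes at 0 h, with 1 and 4 counts in WT, 37 and 34 in KO1, and 136 and 136 in KO2. These markers thus moved with the WT 0 h group and with the contrasts of the clones. Cd79a, a lymphoid marker, went from 0.237 CPM at 0 h to 15.9 at 3 h in WT. ERCC spike-in counts were 120 to 257 per WT library, 3742 to 5780 in KO1 and 5339 to 13774 in KO2, so they could not set a scale that includes WT. What part these features have in the changes described here was not tested.

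The 242 Zfp mRNAs did not move as 1 class of short-lived messages: some were lost early, and more rose late. In WT 105 fell and 82 rose over the first 3 h (edgeR quasi-likelihood test, Benjamini-Hochberg adjusted p under 0.05, the rule for every call below), with a median log2 difference of -0.14. Over all 16167 genes the share called was 33.5% lower and 38.6% higher, with a median of 0.13. The balance turned after 3 h: by 9 h 145 Zfp mRNAs had risen and 42 fallen in WT, with a median of 0.34, where all genes gave 34.2% higher, 31.6% lower and a median of 0.07. Of the 242, 213 had a mean of 5 CPM or more in all 12 groups, and 29 were below it in at least 1. A gene low early can pass the threshold through a later rise, and the 29 stay in these counts. Among the 9434 other protein-coding genes of at least 5 CPM, 3802 rose and 4270 fell in the first window (median -0.05), and 3435 rose and 4313 fell in the second (median -0.08). The share that fell early was 43.4% of the class and the share that rose was 33.9%, beside 33.5% and 38.6% of all genes. Of the other protein-coding genes of at least 5 CPM, 45.3% fell and 40.3% rose early, more on both sides than in the class. In the later window 36.4% of them rose and 45.7% fell, beside 59.9% and 17.4% of the class.

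Both clones gave the same order. In KO1 96 Zfp mRNAs fell and 93 rose over the first 3 h (all genes 33.4% and 37.9%), and in KO2 95 fell and 88 rose (33.3% and 37.6%). In the later window 132 rose and 58 fell in KO1 (32.1% and 33.0%), and 137 rose and 54 fell in KO2 (32.5% and 33.7%). The medians were -0.03 and then 0.27 in KO1, and -0.06 and then 0.31 in KO2. Changes of at least 2-fold were fewer. In WT 33 fell and 18 rose that far by 3 h (16.2% and 17.3% of all genes), and 27 rose and 6 fell that far from 3 h to 9 h (13.7% and 10.8%).

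Together the 242 genes made up about 1 in 100 counts. Their summed level in WT was 9334 and 9408 CPM at 0 h, 8095 and 8045 at 3 h, 8906 and 8914 at 6 h, and 9394 and 9409 at 9 h. KO1 had 9813 and 9875, then 8973 and 8979, 9268 and 9167, and 9964 and 10017. KO2 had 9759 and 9674, then 8811 and 8685, 9477 and 9387, and 9799 and 9793. The sum dipped at 3 h in every genotype and was back near its start at 9 h, and the paired libraries of the 0 h and 3 h groups did not overlap. Gene by gene, the median log2 level against 0 h of WT went to -0.14, 0.10 and 0.21 at 3, 6 and 9 h. That of KO1 went to -0.02, 0.13 and 0.25, and KO2 had -0.06, 0.16 and 0.24. For the other protein-coding genes it went to -0.05, -0.16 and -0.22 in WT.

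**Figure D1:**
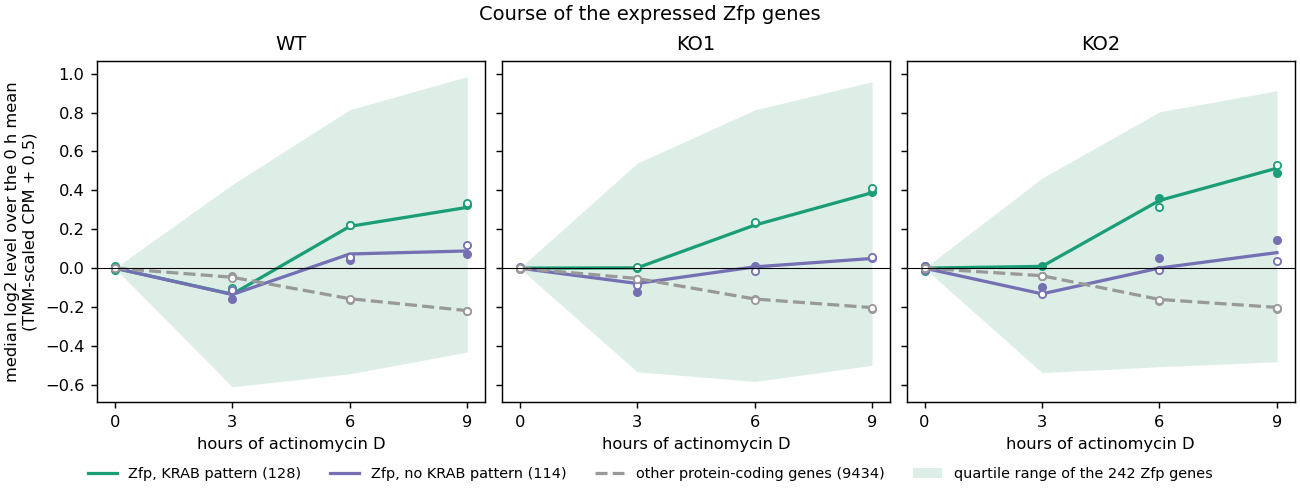
Median log2 level of the Zfp genes over their 0 h mean (TMM-scaled CPM plus 0.5) against hours of actinomycin D, in 1 panel per genotype, for the 128 genes with and the 114 without a KRAB pattern and for 9434 other protein-coding genes; lines are group medians, filled and open points the 2 libraries, and the band the range between the quartiles of the 242 Zfp genes. At 9 h the KRAB line stands at 0.31, 0.39 and 0.51 in WT, KO1 and KO2, while the other protein-coding genes stand at -0.22, -0.20 and -0.20.

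These levels are relative to the rest of a library, and on their own cannot tell loss slower than that of the average mRNA from a true gain. The largest rises can be set beside the spike-ins of the clones. From 0 h to 9 h Zfp750 went from 1.26 and 1.0 to 125 and 128 CPM in KO1, and from 0.876 and 0.498 to 129 and 136 in KO2. ERCC counts went from 3742 and 3970 to 4048 and 4159 in KO1, and from 5623 and 5339 to 13774 and 13509 in KO2. Whether the added Zfp750 mRNA was newly made was not tested. The scale moved the counts more than the distance from the median of all genes. In WT the Zfp median lay 0.27 below the median of all genes over the first 3 h, and 0.27 above it from 3 h to 9 h, under edgeR's TMM and under RLE size factors, library totals and DESeq2 alike. The other protein-coding genes of at least 5 CPM had TMM medians of -0.05, -0.05 and -0.04 over the first 3 h in WT, KO1 and KO2. The Zfp medians of -0.14, -0.03 and -0.06 lay nearer to these, and in KO1 above. Later the other genes had -0.08, -0.09 and -0.11, below the Zfp medians of 0.34, 0.27 and 0.31. Library totals alone raised the median of all genes from 3 h to 9 h to 0.29 in WT, 0.24 in KO1 and 0.23 in KO2, and gave 159 higher and 29 lower Zfp mRNAs in KO1 and 160 and 34 in KO2. Spike-in totals, usable within a clone only, gave 160 higher and 27 lower in KO1. In KO2 spike-in totals shifted all genes by -0.55 over the first 3 h and by -0.44 afterwards, so that 29 Zfp mRNAs rose and 179 fell first, and 56 rose and 112 fell later. The late rise of the KO2 median thus turned to -0.15 on that scale, while its distance from the median of all genes remained at 0.30.

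Levels per kilobase of exon spanned 0.799 to 43.6 CPM per kb. The highest were Zfp445 (43.6), Zfp106 (39.7), Zfp207 (35.9) and Zfp871 (34.8), and these with Zfp664 also had the highest mean CPM. Zfp106 (ENSMUSG00000027288, chromosome 2, 120337301 to 120394324, minus strand), an RNA-binding protein needed by motor neurons, was measured in WT at 738 and 761 CPM at 0 h, 416 and 410.3 at 3 h, 296 and 297 at 6 h and 242 and 241 at 9 h. It fell in both windows, by 1.81-fold in the first 3 h (log2 -0.86, SE 0.02, adjusted p = 1.4e-57) and by 1.71-fold afterwards, and no library of a later time overlapped an earlier one. Zfp871 (ENSMUSG00000024298, chromosome 17, 32984470 to 33007261, minus strand) went the other way in WT, with 194 and 198 CPM at 0 h, 358 and 352 at 3 h, 469.8 and 482 at 6 h and 505 and 492 at 9 h (log2 0.86, SE 0.03, adjusted p = 4.9e-50, first 3 h). Each of its times lay above the one before. Zfp207 (ENSMUSG00000017421, chromosome 11, 80274105 to 80296559, plus strand), a microtubule-binding partner of the spindle checkpoint protein Bub3, had 215 and 219 CPM at 0 h, 310.1 and 310.0 at 3 h, 206 and 205 at 6 h and 187 and 192 at 9 h. It rose by 3 h (log2 0.51, SE 0.03, adjusted p = 3.5e-31) and then fell below its start. Zfp664 had a like peak, 93.6 and 91.7 CPM at 0 h, 146 and 138 at 3 h, 138 and 133 at 6 h and 121 and 120.4 at 9 h in WT (first 3 h log2 0.62, SE 0.04, adjusted p = 8.7e-25). In KO1 and KO2 each of these 4 genes also moved in its WT direction from 0 h to 3 h, with no overlap between the libraries of the 2 times.

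Courses were shared between genotypes. In all 3, 78 Zfp mRNAs fell (27.4% of all genes) and 68 rose (29.3%) over the first 3 h, and 120 rose (24.4%) and 34 fell (25.7%) from 3 h to 9 h. The separate libraries of WT and KO1 gave log2 differences that correlated across the 242 genes at r = 0.95 in the first window, where 155 genes were called in the same direction in both and 5 in opposite directions. In the second window r was 0.92, with 160 and 2. Genes are not independent replicates, and these values describe these libraries only.

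The commonest single shape in WT was a fall followed by a rise, found for 60 Zfp mRNAs or 24.8%, against 10.3% of all genes. KO1 had 42 (17.4%, against 9.09%) and KO2 46 (19.0%, against 8.96%). Steady risers numbered 54, 54 and 53 in WT, KO1 and KO2 (14.7%, 14.5% and 14.5% of all genes), and steady fallers 22, 25 and 27 (13.9%, 15.3% and 15.2%). The 3 h libraries enter both windows, so a high or low 3 h value alone moves a gene towards a turn. In all 3 genotypes 29 Zfp mRNAs fell then rose (5.65% of all genes), 38 rose in both windows (9.53%) and 17 fell in both (10.8%). Those that fell in both were Zfp26, Zfp91, Zfp106, Zfp131, Zfp148, Zfp236, Zfp326, Zfp362, Zfp386, Zfp523, Zfp560, Zfp638, Zfp704, Zfp787, Zfp958, Zfp982 and Zfp984.

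The 5 largest falls by 3 h in WT were those of Zfp609, Zfp608, Zfp945, Zfp236 and Zfp148. Zfp609 (ENSMUSG00000040524, chromosome 9, 65599673 to 65734846, minus strand), which acts with the Integrator complex and the cohesin loader Nipbl, had 126 and 133 CPM at 0 h, 14.8 and 13.7 at 3 h, 16.5 and 17.9 at 6 h and 17.7 and 17.7 at 9 h in WT. The whole loss came before 3 h: it was 9.07-fold (log2 -3.18, SE 0.07, adjusted p = 3.2e-64), and 9 h lay slightly above 3 h. KO1 kept 20.5 and 22.8 CPM at 3 h and KO2 21.8 and 20.9, so that its fall was smaller there, 5.48-fold and 6.07-fold. The difference of the changes was 0.73, SE 0.11, adjusted p = 6.1e-08, in KO1 and 0.58, SE 0.11, adjusted p = 1.7e-05, in KO2.

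Zfp608, the close relative of Zfp609, fell from 94.9 and 94.9 to 12.5 and 13.1 CPM in WT (log2 -2.88, SE 0.09, adjusted p = 2.4e-54) and was 17.5 and 18.2 at 9 h. In KO2 it fell further, from 74.8 and 77.4 to 7.34 and 6.52, a difference of the changes of -0.57, SE 0.15, adjusted p = 0.0017, and both KO2 libraries at 3 h lay below those of WT. Zfp945 (ENSMUSG00000059142, chromosome 17, 23065671 to 23086108, minus strand), with 18 finger patterns and a KRAB pattern, had 62.4 and 63.0 CPM at 0 h, 8.07 and 11.2 at 3 h, 6.99 and 7.98 at 6 h and 8.74 and 8.65 at 9 h in WT (log2 -2.69, SE 0.10, adjusted p = 9.1e-46). Zfp236, with 30 finger patterns, went from 74.5 and 76.8 to 14.1 and 14.7 (log2 -2.39, SE 0.08, adjusted p = 3.4e-48) and stayed near there, at 12 and 12. Zfp148 (ENSMUSG00000022811, chromosome 16, 33201206 to 33324733, plus strand), a factor that binds GC-rich promoters, had 124 and 126 CPM at 0 h, 27.6 and 32.5 at 3 h, 25.5 and 26.4 at 6 h and 19.6 and 22.4 at 9 h (log2 -2.05, SE 0.06, adjusted p = 1.9e-53). Of the 5, Zfp148 and Zfp236 fell again after 3 h in all 3 genotypes, Zfp148 by 1.43-fold in WT. At 3 h Zfp148 stood at 39.4 and 39 CPM in KO1 and 40.6 and 36.0 in KO2, and its early fall was smaller in both than in WT (log2 0.37, SE 0.09, adjusted p = 6.3e-04 in KO1).

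The letters TATTTAT in a 3′ UTR are the core of AU-rich elements, which recruit decay factors to many short-lived mRNAs. They were searched on the sense strand only, in the 3′ UTR of the longest coding transcript of GENCODE M21 (GRCm38), and overlapping matches were counted. Of 236 Zfp genes with a 3′ UTR, 75 (31.8%) held a match, against 27.3% of 9308 other protein-coding genes, and per kb of UTR the rates were 0.268 and 0.288. Zfp 3′ UTRs were longer, with a median of 1230.5 bases against 957. The sites shown are the first in each of 4 Zfp genes that fell and 3 that rose over the first 3 h in WT. Both sides are shown because the same letters stood on each. The choice was made among part of the genes, so these need not be the most extreme with a match. Capitals mark TATTTAT.

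Those that fell were as follows, 5′ to 3′, each from its own UTR.
Zfp609: ttgcaaaaaTATTTATtctctcagc
Zfp945: ttgtgttgcTATTTATgtgcatgtc
Zfp217: ttgttaatgTATTTATttcattcca
Zfp292: ttttgtataTATTTATtattgtaaa
Those that rose were as follows.
Zfp811: tttctagacTATTTATttcatgtgt
Zfp703: cggactgtgTATTTATttactataa
Zfp846: gttgagtgaTATTTATtgtgaactt

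The match lay at bases 226 to 232 of the 3′ UTR in Zfp609, 3017 to 3023 in Zfp945, 1900 to 1906 in Zfp217 and 345 to 351 in Zfp292. In the risers it lay at 1155 to 1161 in Zfp811, 134 to 140 in Zfp703 and 501 to 507 in Zfp846. Zfp292 had 102 and 94.6 CPM at 0 h and 33.4 and 31.3 at 3 h in WT, and Zfp846 had 5.51 and 5.32 at 0 h and 17.6 and 13.9 at 3 h. Both hold several matches, 3 and 4, and they moved in opposite directions. The 75 genes with a match had a median of -0.10 over the first 3 h in WT (26 rose, 30 fell) and the 161 with a 3′ UTR and no match one of -0.16 (53 rose, 74 fell). Of all genes 38.6% rose and 33.5% fell over these hours, and of the other protein-coding genes of at least 5 CPM 40.3% and 45.3%. A match is a description of the letters and not evidence of a working site.

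The largest rises by 3 h in WT were those of Zfp651, Zfp750, Zfp811, Zfp296 and Zfp948. Zfp651 (ENSMUSG00000013419, chromosome 9, 121588396 to 121600808, plus strand), the mouse counterpart of human ZBTB47, was nearly absent at 0 h, with 3 and 3 counts in WT, 1 and 3 in KO1, and 4 and 5 in KO2. At 3 h it had 83 to 88, 104 to 124 and 108 to 137 counts. The ratio of 3 h to 0 h was 29.7 in WT (95% exact binomial interval 13.3 to 81.9), 54.5 in KO1 (21 to 202) and 27.9 in KO2 (14.5 to 61.8), where intervals cover counting error only. On the other strand the gene shares 109 exon bases with E530011L22Rik, which went from 0.177 to 3.10 CPM in WT over the same hours. The counts did not use strand, so reads of the pair cannot be told apart.

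Zfp750 (ENSMUSG00000039238, chromosome 11, 121401804 to 121410159, minus strand), a regulator of epidermal differentiation, climbed through the whole course. Its levels were 1.01 and 0.828 CPM at 0 h, 13.8 and 16.4 at 3 h, 39.6 and 35.6 at 6 h and 72.8 and 71.0 at 9 h in WT, 1.26 and 1.0 CPM at 0 h, 25 and 23.4 at 3 h, 65.0 and 71.6 at 6 h and 125 and 128 at 9 h in KO1, and 0.876 and 0.498 CPM at 0 h, 23.3 and 19.8 at 3 h, 66.5 and 60.7 at 6 h and 129 and 136 at 9 h in KO2. From 14 and 17 counts at 0 h in WT the ratio at 3 h was 15.4 (10.7 to 22.9), and it was 20.8 (14.8 to 30.1) in KO1 and 30.5 (20.0 to 49.0) in KO2. Between 3 h and 9 h it rose a further 4.74-fold in WT (log2 2.25, SE 0.08, adjusted p = 1.0e-47). From 3 h on the clones lay above WT in every library. The difference of the changes after 3 h passed in KO2 (log2 0.38, SE 0.12, adjusted p = 0.011) and not in KO1 (log2 0.14, SE 0.11, adjusted p = 0.43), and that of the first 3 h passed in neither. The gene sits inside an intron of Tbcd on the other strand. Tbcd went from 90.9 CPM at 0 h to 94.7, 57.6 and 30.0 at 3, 6 and 9 h in WT, which is a fall while Zfp750 rose.

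Zfp811 (ENSMUSG00000055202, chromosome 17, 33014650 to 33028905, minus strand), a KRAB gene with 14 finger patterns, had 2.31 and 1.95 CPM at 0 h, 13.3 and 10.2 at 3 h, 27.9 and 24.7 at 6 h and 30.0 and 25.8 at 9 h in WT (log2 2.45, SE 0.18, adjusted p = 1.4e-23). At 9 h it stood at 23.7 and 25.8 in KO1 and 27.3 and 26.9 in KO2. Zfp296 (ENSMUSG00000011267, chromosome 7, 19311212 to 19314581, plus strand), a factor known from pluripotent cells, had 4.79 and 4.91 CPM at 0 h, 16.1 and 17.4 at 3 h, 29.6 and 25.6 at 6 h and 29.9 and 34.3 at 9 h (log2 1.79, SE 0.14, adjusted p = 8.7e-23) and shares 263 exon bases with Gemin7 on the other strand, which moved from 27.6 to 32.4 CPM by 3 h. Zfp948 (ENSMUSG00000067931, chromosome 17, 21787270 to 21808961, plus strand) rose to a peak and came down: WT had 8.52 and 9.58 CPM at 0 h, 29.6 and 30.5 at 3 h, 29.4 and 27.1 at 6 h and 15.3 and 15.2 at 9 h, a gain of 3.32-fold (log2 1.73, SE 0.11, adjusted p = 4.5e-29) and then a loss of 1.97-fold. KO1 reached 46.3 and 42.6 CPM at 3 h, and the first 3 h differed from WT (log2 0.78, SE 0.16, adjusted p = 4.0e-05). In all, 11 Zfp genes were below 5 CPM at 0 h in each genotype and passed the threshold through later times, so that a rise in them follows from the choice: Zfp69, Zfp85, Zfp429, Zfp457, Zfp551, Zfp647, Zfp651, Zfp667, Zfp750, Zfp811 and Zfp963. Zfp296 was also below 5 CPM at 0 h in WT.

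**Figure D2:**
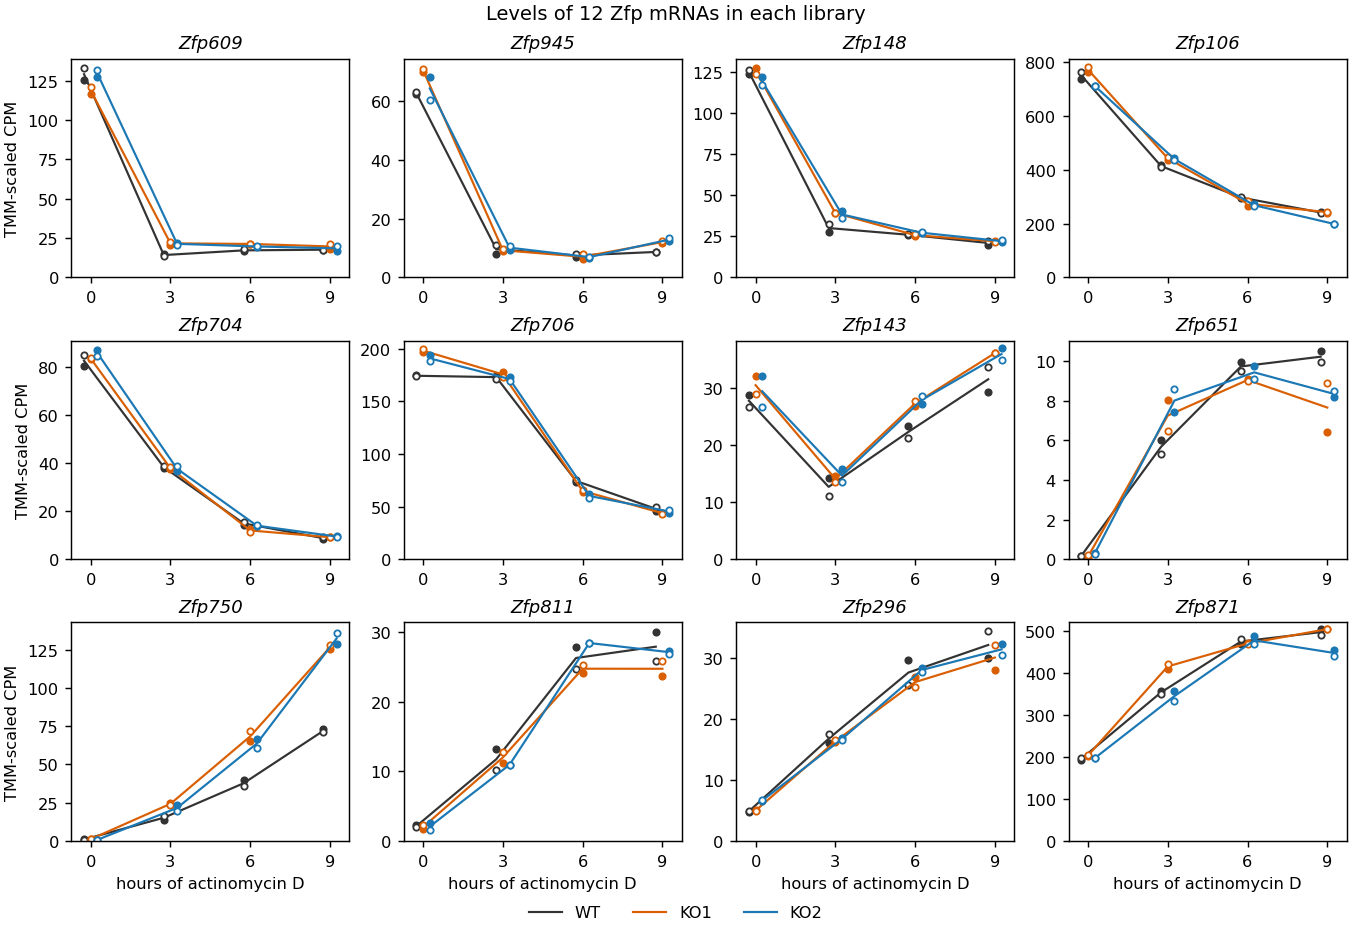
TMM-scaled CPM (y axis, from 0) of 12 Zfp mRNAs against hours of actinomycin D (x axis) in WT, KO1 and KO2; points are single libraries, filled and open for the 2 libraries of a group, and lines join group means. Zfp609, Zfp945 and Zfp148 lose most of their level by 3 h, Zfp704 loses ground in both windows, Zfp706 is level until 3 h and then falls, and Zfp750 climbs to 72.8 and 71.0 CPM in WT and to 129 and 136 in KO2.

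Late changes had their own leaders. Zfp704 (ENSMUSG00000040209, chromosome 3, 9492080 to 9675145, minus strand) fell 2.16-fold in the first 3 h and 4.38-fold in the next 6 h, from 80.5 and 84.9 CPM at 0 h, 38.0 and 38.7 at 3 h, 14.2 and 15.6 at 6 h and 8.22 and 9.29 at 9 h in WT (log2 -2.13, SE 0.10, adjusted p = 2.5e-39, late window). KO1 ended at 9.09 and 9.23 CPM and KO2 at 9.61 and 9.26. Of its exon bases 16.6% overlap C030034L19Rik on the other strand, which itself went from 5.50 to 2.18 CPM between 3 h and 9 h. Zfp706 (ENSMUSG00000062397, chromosome 15, 36997271 to 37008017, minus strand), a small protein with a single finger pattern, was level for 3 h and then lost: 175 and 174 CPM at 0 h, 174 and 171 at 3 h, 73.3 and 75.3 at 6 h and 46.2 and 49.5 at 9 h in WT (log2 -1.85, SE 0.05, adjusted p = 3.8e-62). KO1 went from 178 and 173 at 3 h to 44.1 and 43.4 at 9 h, and KO2 from 173 and 169 to 44.3 and 46.3. Zfp326, part of a complex that couples elongation to splicing, fell 2.15-fold after 3 h, from 39.9 and 38.5 to 20.0 and 16.4.

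Among late risers, Zfp947 (ENSMUSG00000063383, chromosome 17, 22363340 to 22385171, minus strand) had 6.16 and 5.44 CPM at 0 h, 4.65 and 3.78 at 3 h, 9.93 and 9.32 at 6 h and 15.9 and 15.9 at 9 h in WT, a gain of 3.77-fold after a dip (log2 1.92, SE 0.15, adjusted p = 8.9e-22). Its WT libraries at 3 h lay below 5 CPM, and it passed the threshold through other groups. Zfp677 (ENSMUSG00000062743, chromosome 17, 21604010 to 21619527, plus strand), on the same chromosome, had 11.4 and 14.1 CPM at 0 h, 9.44 and 8.14 at 3 h, 18.3 and 21.9 at 6 h and 31.7 and 31.5 at 9 h (log2 1.85, SE 0.11, adjusted p = 1.9e-28). Both are KRAB genes, and both were highest at 9 h in all 3 genotypes.

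**Figure D3:**
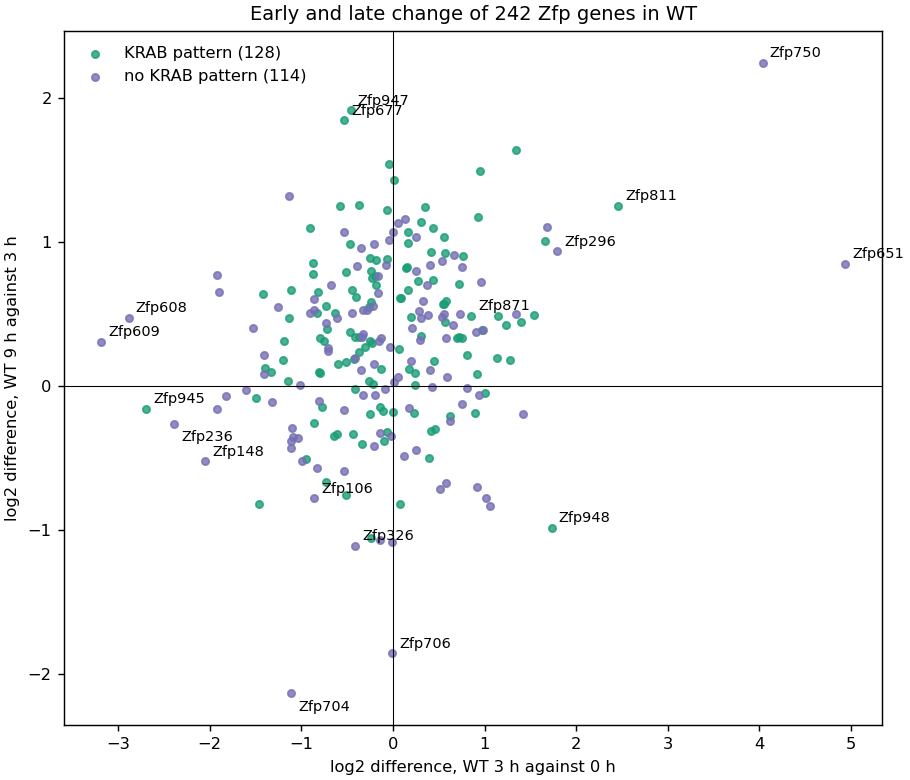
Each point is 1 of the 242 Zfp genes in WT, with the log2 difference of 3 h against 0 h on the x axis and of 9 h against 3 h on the y axis, coloured by whether the coding sequence holds a KRAB pattern. Zfp609 (-3.18, 0.31) lies far left near the zero line, Zfp704 (-1.11, -2.13) lowest, and Zfp750 (4.04, 2.25) at the upper right; the 3 h libraries enter both axes.

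By role, the transcription list held 13 members among 16 genes listed. This list and those below were drawn up with earlier results of these data known, so their counts describe the named genes only. In WT 10 of the 13 fell and 2 rose by 3 h (median log2 -0.71). Over all genes the median was 0.13, with 33.5% fallen and 38.6% risen. Of the other protein-coding genes of at least 5 CPM 45.3% fell and 40.3% rose (median -0.05). In KO1 9 of the 13 fell and 4 rose (33.4% and 37.9% of all genes), and in KO2 9 and 3 (33.3% and 37.6%). After 3 h 7 rose and 3 fell in WT (median 0.25; 34.2% and 31.6% of all genes). Besides Zfp609 and Zfp148, the deepest early falls were those of Zfp217, Zfp592, Zfp143 and Zfp644. Zfp217 (ENSMUSG00000052056, chromosome 2, 169950563 to 169990023, minus strand), a subunit of CtBP corepressor complexes and an oncogene in human tumours, had 175 and 178 CPM at 0 h, 48.7 and 46.4 at 3 h, 69.2 and 65.4 at 6 h and 69.6 and 80.0 at 9 h (log2 -1.89, SE 0.05, adjusted p = 2.3e-59). It regained 1.57-fold after 3 h, without reaching its start. Zfp143 (ENSMUSG00000061079, chromosome 7, 109660424 to 109694601, plus strand), which binds promoters and the anchors of chromatin loops, had 28.8 and 26.7 CPM at 0 h, 14.3 and 11.0 at 3 h, 23.3 and 21.3 at 6 h and 29.3 and 33.7 at 9 h in WT, 32.1 and 28.9 CPM at 0 h, 14.6 and 13.5 at 3 h, 26.9 and 27.7 at 6 h and 36.1 and 36.1 at 9 h in KO1, and 32.2 and 26.7 CPM at 0 h, 15.7 and 13.5 at 3 h, 27.2 and 28.6 at 6 h and 36.9 and 34.9 at 9 h in KO2. In each genotype it fell by at least 2.01-fold and then rose by at least 2.46-fold, and the groups of 0 h and 3 h did not overlap.

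Zfp592 and Zfp687 act together in a chromatin complex with Zmynd8, and their mRNAs parted: Zfp592 went from 59.1 and 61.7 to 22.7 and 22.9 CPM in WT (log2 -1.40, SE 0.08, adjusted p = 2.1e-31), and Zfp687 from 58.0 and 61.8 to 59.3 and 53.9 (log2 -0.08, SE 0.06, adjusted p = 0.21). The Zfp687 value passed lower with library totals (adjusted p = 0.0036) and with only the libraries of the contrast (0.025), both edgeR fits. Zfp644, a partner of the histone methyltransferases G9a and GLP, fell 2.15-fold, from 62.0 and 58.9 to 28.3 and 27.8. Zfp384, a partner in leukaemia fusions, fell 1.45-fold and Zfp335, a regulator of neural and T cell progenitors, 1.63-fold. Of the exon bases of Zfp335, 28.3% overlap Pcif1 and Zfp335os on the other strand. Zfp281, a repressor known from embryonic stem cells, rose by 3 h from 44.8 and 44.9 to 87.5 and 84.2 (log2 0.94, SE 0.05, adjusted p = 2.2e-31) and stayed at 82.6 and 82.2 at 9 h. Zfp219, a partner of Sox9, rose in both windows to 135 and 123 from 49.8 and 47.1. Zfp263 and Zfp318, the latter needed for IgD transcripts in B cells, dipped by 1.16-fold and 1.12-fold and then rose 1.98-fold and 1.70-fold; the early call was lost without WT 0 h replicate 2 for Zfp263 (edgeR adjusted p = 0.052) and without WT 3 h replicate 1 for Zfp318 (0.067).

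The silencing list held 4 of 7 genes, of which 3 rose and 1 fell by 3 h in each genotype (in WT 38.6% and 33.5% of all genes). Zfp445 (ENSMUSG00000047036, chromosome 9, 122673594 to 122695071, minus strand), which protects imprints together with Zfp57, had 269.8 and 261 CPM at 0 h, 294 and 307 at 3 h, 357 and 355 at 6 h and 326 and 328 at 9 h in WT, a gain of 1.13-fold (log2 0.18, SE 0.03, adjusted p = 1.2e-08). Zfp809 (ENSMUSG00000057982, chromosome 9, 22137010 to 22154650, plus strand), which silences murine leukaemia virus at its primer-binding site, had 54.9 and 52.7 CPM at 0 h, 82.0 and 75.4 at 3 h, 99.9 and 112 at 6 h and 115 and 119 at 9 h and rose in both windows (log2 0.55, SE 0.06, adjusted p = 3.1e-15, first 3 h). Zfp932, a silencer of endogenous retroviruses, rose by 3 h from 39.8 and 40.3 to 54.8 and 55.1 CPM and then fell to 42.7 and 46.7; 26.9% of its 100-base windows also occur in transcripts of other genes. Zfp568 (ENSMUSG00000074221, chromosome 7, 29683380 to 29727707, plus strand), which represses a placental transcript of Igf2, fell from 76.2 and 83.7 to 33.3 and 36.4 (log2 -1.20, SE 0.06, adjusted p = 8.1e-33). It was the list's only faller and the one with the lowest level per kb, 6.55 CPM per kb.

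Of 11 genes listed for roles in RNA, ribosomes, ubiquitin and the spindle, 10 were members. Of these 6 fell and 3 rose in WT by 3 h (median -0.37, with 33.5% and 38.6% of all genes). Zfp91, an atypical ubiquitin ligase of NF-kappaB signalling, went from 147 and 149 to 70.5 and 68.9 CPM (log2 -1.09, SE 0.05, adjusted p = 3.0e-40), and Zfp638, a nuclear RNA-binding protein that silences unintegrated retroviral DNA, from 121 and 117 to 67.5 and 66.3 (log2 -0.83, SE 0.05, adjusted p = 1.3e-28). Both fell further by 9 h. Zfp598 (ENSMUSG00000041130, chromosome 17, 24888661 to 24900990, plus strand), the ubiquitin ligase that senses collided ribosomes, had 111 and 119.9 CPM at 0 h, 91.4 and 91.1 at 3 h, 103 and 95.1 at 6 h and 112 and 119 at 9 h (log2 -0.34, SE 0.05, adjusted p = 1.0e-10), a shallow dip that closed. Zfp622, which matures the large ribosomal subunit, fell 1.33-fold by 3 h. Zfp346, which binds double-stranded RNA, and Zfp830, a splicing-associated factor, rose 1.24-fold and 1.5-fold by 3 h. Zfp330, a nucleolar protein, had 83.3 and 85.3 CPM at 0 h, 90.6 and 84.6 at 3 h, 89.4 and 86.4 at 6 h and 88.6 and 94.4 at 9 h in WT; its difference at 3 h did not pass (log2 0.05, SE 0.05, adjusted p = 0.3), and its sign turned with library totals (-0.051) and with only the libraries of the contrast (-0.01).

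The partners through which KRAB proteins act formed a list of 20 corepressor and heterochromatin genes, of which 19 could be matched and tested. In WT 12 fell and 6 rose by 3 h (median -0.32; 33.5% and 38.6% of all genes), and 14 fell and 4 rose from 3 h to 9 h (median -0.33; 31.6% and 34.2%). Those that fell in both windows numbered 8: Cbx1, Cbx5, Pphln1, Morc2a, Chd3, Chd4, Dnmt1 and Atrx. Another 5, Trim28, Cbx3, Hdac1, Hdac2 and Uhrf1, rose first and fell later, and Mphosph8, Morc3 and Smarcad1 fell first and rose later. Trim28 itself rose from 220.0 to 465 CPM at 3 h (log2 1.08, SE 0.03, adjusted p = 2.0e-61) and then declined to 264 (means of 2 libraries). Atf7ip, the partner of the methyltransferase Setdb1, fell from 179.8 to 54.6 (log2 -1.72, SE 0.05, adjusted p = 2.0e-56), and Setdb1 went from 80.3 to 74.5 (log2 -0.11, SE 0.05, adjusted p = 0.067). Atrx, a chromatin remodeller, lost most of its level late, from 299.9 to 73.9 (log2 -2.02, SE 0.04, adjusted p = 2.0e-73).

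Among the 242 coding sequences, translated from GENCODE M21, the number of finger patterns had a median of 10 and ran from 0 to 36, and 128 held a KRAB pattern. By 3 h in WT 54 genes with the KRAB pattern fell and 43 rose (median -0.14), and without it 51 fell and 39 rose (median -0.14). From 3 h to 9 h 83 with it rose and 15 fell (median 0.38), and without it 62 rose and 27 fell (median 0.31). Of all genes in WT 33.5% fell and 38.6% rose in the first window, and 34.2% rose and 31.6% fell in the second. The other protein-coding genes of at least 5 CPM gave 45.3% and 40.3%, and then 36.4% and 45.7%. At 9 h against 0 h the median log2 level was 0.31, 0.39 and 0.51 with the pattern in WT, KO1 and KO2, and 0.09, 0.05 and 0.08 without it. In summed level, the KRAB genes went from 3493 and 3528 CPM at 0 h in WT to 4352 and 4347 at 9 h. The genes without the pattern went from 5841 and 5881 to 5042 and 5062. At 3 h the sum without the pattern was 4687 and 4660 and that with it 3408 and 3385. Most of the dip in the summed level of the class thus lay in genes without a KRAB pattern. A sum weighs abundant genes most, and gene by gene both sets had a median of -0.14 over these hours.

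The share of G or C at the last position of codons (GC3) had a median of 47.0% in Zfp genes and 60.1% in the other protein-coding genes. The genes were split by GC3 into 3 bins of like size. In WT 33.5% of all genes fell and 38.6% rose by 3 h, and 45.3% and 40.3% of the other protein-coding genes. After 3 h 34.2% of all genes rose and 31.6% fell, and 36.4% and 45.7% of the other protein-coding genes. The share that fell early in the lowest bin, 46.9%, was near that of the other protein-coding genes. In the lowest bin, 38 of 81 fell and 20 rose by 3 h in WT (median -0.24), in the middle bin 38 of 80 fell and 23 rose (median -0.20), and in the highest bin 29 of 81 fell and 39 rose (median 0.17). In the later window the lowest bin gave 36 higher and 22 lower (median 0.09), the middle bin 57 and 6 of 80 (median 0.50), and the highest bin 52 and 14 (median 0.37). KO1 and KO2 gave the same order by 3 h, with -0.08 and -0.17 in the lowest and 0.19 and 0.13 in the highest bin. Across the 242 genes the relation of GC3 to the early change was weak, with a Spearman's rho of 0.12 in WT, 0.08 in KO1 and 0.13 in KO2. The rho in WT was -0.22 for exon length and 0.02 for finger number. These relations are across genes, which are not independent replicates.

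Zfp genes lie in runs, and neighbours often share sequence. Of the 242, 60 were on chromosome 7, 34 on chromosome 17 and 19 on chromosome 13. Runs were defined as at least 4 members with gaps of at most 200 kb, in the coordinates of the files (GRCm39). The largest, on chromosome 17 from 21604010 to 22596262, held 15 members from Zfp677 to Zfp758. In WT 8 of these fell and 2 rose by 3 h (median -0.42), and 10 rose and 3 fell afterwards (median 0.64). Of all genes in WT 33.5% fell and 38.6% rose by 3 h, and 34.2% rose and 31.6% fell afterwards. Of the whole class 43.4% fell and 33.9% rose, and then 59.9% rose and 17.4% fell. Neighbours in it went separate ways: Zfp948 rose 3.32-fold by 3 h while Zfp53, with 85.4 and 82.8 CPM at 0 h, 52.4 and 54.8 at 3 h, 49.9 and 47.8 at 6 h and 41.0 and 43.4 at 9 h in WT, and Zfp229, with 25 and 24.8 and then 11.1 and 11.3, fell.

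In some other runs most members were called the same way in 1 window. In WT 38.6% of all genes rose and 33.5% fell early, and 34.2% rose and 31.6% fell late. The late rise was called for 59.9% of the class in WT, 54.5% in KO1 and 56.6% in KO2. Whether neighbours moved together more than other genes was not tested. On chromosome 17 from 32984470 to 33329679, where Zfp871 and Zfp811 lie, all 8 members rose from 3 h to 9 h in WT (median 0.75), with 7 of 8 in KO1 and in KO2. On chromosome 7 from 126832233 to 127214969, 6 of 7 members rose and none fell by 3 h in WT (median 0.92), with 5 and 6 risen in KO1 and KO2. From 3 h to 9 h 5 of them rose and 2 fell in each genotype. On chromosome 4 from 147576874 to 147932823, 4 of 5 fell by 3 h in WT (median -0.51) and 3 of 5 fell afterwards (median -0.75). In each clone 4 fell and 1 rose by 3 h. By gene, the WT calls were as follows. Zfp982 and Zfp984 fell in both windows, Zfp979 and Zfp985 in the first and Zfp933 in the second. It was the only run of the 15 with a negative late median in WT. On chromosome 13 from 67269724 to 67903347, 7 of 11 rose late and none fell in WT, 6 rose and 1 fell in KO1, and 8 rose and none fell in KO2. Zfp429, Zfp457 and Zfp85 in this run are among the genes that passed the threshold through later times. Shared reads bear on such values. Of the 242 genes 62 had 100-base windows that also occur in transcripts of other genes, 22 of them over more than 10% of their windows, and 46 shared exon bases with another tested gene. Their part in the shared courses was not tested.

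**Figure D4:**
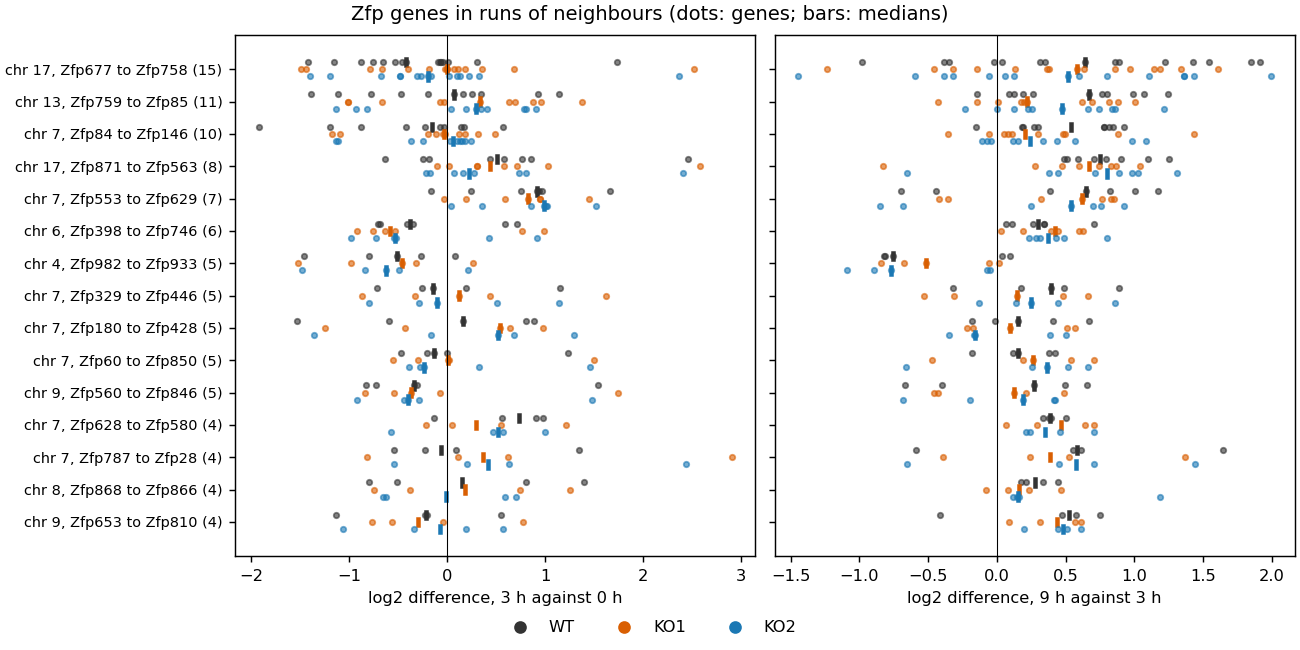
Log2 differences of Zfp genes in the 15 runs of neighbours, at 3 h against 0 h (left) and 9 h against 3 h (right); each row is a run with its chromosome, first and last gene and number of members, dots are genes in WT, KO1 and KO2, and bars are medians. The medians of the run on chromosome 4 from Zfp982 to Zfp933 lie left of zero in both panels, at -0.51 and -0.75 in WT, with single genes on the right.

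At 0 h, genotype differences were small. In KO1 at 0 h 44 Zfp mRNAs were higher and 22 lower than in WT (15% and 12.3% of all genes), with a median of 0.04, and in KO2 41 and 12 (15.1% and 14.3%), with a median of 0.04. Of the class these were 18.2% and 9.09% in KO1, and 16.9% and 4.96% in KO2. The other protein-coding genes of at least 5 CPM gave more on both sides, 23.0% and 17.4% in KO1 and 22.1% and 19.9% in KO2. The clones share the WT libraries, so KO1 and KO2 give 2 readings against 1 control. Between the clones 15 Zfp mRNAs were higher in KO2 and 12 lower (7.29% and 9.55% of all genes, 10.3% and 14.3% of the other protein-coding genes). With DESeq2 the Zfp counts fell to 7 and 7. With only the libraries of the contrast KO2 against WT gave 27 higher and 7 lower. The calls of KO2 below WT fell to 7 without WT 0 h replicate 2, and those of KO1 below WT from 22 to 13 without it and to 14 without KO1 0 h replicate 1. None of the 242 was called with a 2-fold difference at 0 h.

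Zfp667 (ENSMUSG00000054893, chromosome 7, 6289578 to 6310882, plus strand) was lowest against WT in both clones. WT had 3.43 and 4.67 CPM, KO1 1.86 and 2.20 (log2 -0.99, SE 0.22, adjusted p = 1.6e-04) and KO2 2.31 and 2.68 (log2 -0.70, SE 0.21, adjusted p = 0.0059), with no overlap. The KO2 call was lost without WT replicate 2 (edgeR adjusted p = 0.22) and without KO2 replicate 1 (0.079). Zfp420 had 8.76 and 7.57 in WT, 13.3 and 12.3 in KO1 (log2 0.65, SE 0.14, adjusted p = 8.3e-05) and 12.3 and 11.5 in KO2 (log2 0.54, SE 0.14, adjusted p = 0.0011), all higher than WT. Zfp512 (ENSMUSG00000062761, chromosome 5, 31609775 to 31639098, plus strand) had 73.7 and 74.5 in WT, 99.8 and 101 in KO1 and 105 and 105 in KO2, which is 1.35-fold in KO1 and 1.42-fold in KO2 (log2 0.51, SE 0.05, adjusted p = 9.6e-15). Zfp53 was lower in both, at 64.2 and 66.2 in KO1 and 58.9 and 56.5 in KO2 against 85.4 and 82.8 in WT (log2 -0.54, SE 0.06, adjusted p = 7.7e-15 in KO2).

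Other differences were larger in KO1 than in KO2. Zfp35 had 55.8 and 56.7 CPM in WT, 85.2 and 83.4 in KO1 (log2 0.58, SE 0.06, adjusted p = 6.9e-16) and 68.5 and 69.5 in KO2; both clones passed as higher than WT, and KO2 lay below KO1 (log2 -0.29, SE 0.05, adjusted p = 1.4e-05). Zfp990 (ENSMUSG00000078503, chromosome 4, 145237329 to 145265758, plus strand) had 103 and 105 in WT, 149 and 149.7 in KO1 and 119.7 and 110.1 in KO2, with KO2 higher than WT and lower than KO1 (log2 -0.38, SE 0.04, adjusted p = 2.0e-12). Zfp330 stood at 115 and 113 in KO1 against 83.3 and 85.3 in WT and 88.0 and 93.2 in KO2 (log2 -0.34, SE 0.04, adjusted p = 1.2e-09, KO2 against KO1). In the other direction, Zfp775 had 15.2 and 13.1 in KO1, 21.4 and 20.8 in WT and 20.7 and 17.9 in KO2; its call between clones was lost without KO1 replicate 2 (edgeR adjusted p = 0.088) or KO2 replicate 1 (0.078). Zfp61 had 16.6 and 15.9 in KO1, below 21.8 and 23.2 in WT and 22.4 and 20.6 in KO2. Zfp971 was lower in both clones, at 27.2 and 23.2 in KO1 and 29.1 and 30.6 in KO2 against 38.7 and 35.4, and 13.8% of its windows occur in other genes.

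Larger in KO2 were the differences of Zfp229, at 36.1 and 35.5 CPM against 25 and 24.8 in WT and 28.3 and 28.3 in KO1 (log2 0.52, SE 0.09, adjusted p = 8.9e-07, KO2 against WT), and Zfp628, at 31.4 and 31.2 against 23.4 and 20.4 (log2 0.51, SE 0.09, adjusted p = 2.5e-06). KO1 lay between for both, passing as higher than WT for Zfp628 (log2 0.27, SE 0.10, adjusted p = 0.026) and not for Zfp229 (log2 0.18, SE 0.09, adjusted p = 0.14). KO2 was above KO1 for each (log2 0.34, SE 0.09, adjusted p = 0.0028 for Zfp229). Less firm were Zfp580, higher in both clones, Zfp810, lower in KO1, Zfp113, lower in KO2 than in KO1, and Zfp169 and Zfp599, lower in KO2. Each of these 5 lost its call in 1 or more fits without a library, and Zfp599 and Zfp113 also with DESeq2 (adjusted p = 0.060 for both). Of the role lists, 0 of the 13 transcription genes passed in KO1 at 0 h (edgeR) and 2 were higher and 1 lower in KO2, while 5 of 10 genes for RNA, ribosomes, ubiquitin and the spindle were higher in KO1 and 0 lower, and 3 were higher and 1 lower in KO2. The shares of all genes were 15% and 12.3% for KO1 and 15.1% and 14.3% for KO2. Those of the other protein-coding genes of at least 5 CPM were 23.0% and 17.4% for KO1, and 22.1% and 19.9% for KO2. Zfp598 passed as higher in both clones, at 141 and 138 in KO1 and 144 and 140.4 in KO2 against 111 and 119.9.

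The courses of the clones were then compared with that of WT by interaction terms. Over the first 3 h 51 Zfp mRNAs changed more upward in KO1 than in WT and 15 more downward (13.1% and 12.7% of all genes), with a median of 0.10. KO2 gave 39 and 14 (13.3% and 11.4%), with a median of 0.05. Of the class these were 21.1% and 6.2% in KO1, and 16.1% and 5.79% in KO2. The other protein-coding genes of at least 5 CPM gave 19.9% and 19.4% in KO1, and 20.5% and 17.0% in KO2. The class was thus near or below these genes on the upward side, and below them on the downward side. With library totals the splits of the class were 65 and 9 in KO1 and 59 and 9 in KO2. All genes shifted upward on that scale too, with 17.5% and 9.28% called in KO1, and 18.8% and 8.03% in KO2. After 3 h the sides changed places: 8 up and 35 down in KO1 (11.0% and 10.1%), and 11 and 27 in KO2 (9.99% and 10.8%), with a median of -0.07 in both. For the class DESeq2 gave 8 and 19 in KO1 (10.9% and 6.07% of all genes), and 10 and 16 in KO2 (10.2% and 6.17%). RLE size factors gave 10 and 23 in KO1 (12.9% and 8.06%), and 14 and 21 in KO2 (12.4% and 8.18%). Leaving out single libraries gave 9 to 16 downward calls in KO1 over the first 3 h, 8 to 12 in KO2, and for the later window 19 to 26 downward calls in KO1 and 4 to 10 upward calls in KO2. Both clones are set against the same WT libraries, and the 3 h libraries enter both windows.

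Zfp667 had the largest upward difference in both clones. It is 1 of the 11 genes below 5 CPM at 0 h in each genotype, which passed the threshold through later times. After its low start it reached 15 and 15.4 CPM at 3 h in KO1 and 14.2 and 13.0 in KO2, against 10.5 and 10.2 in WT, so that the clones crossed from below WT to above it. The 0 h libraries that put it below WT (log2 -0.99 in KO1, -0.70 in KO2) also enter the difference of the changes. The difference of the changes was 1.55, SE 0.25, adjusted p = 2.8e-07, in KO1 and 1.09, SE 0.24, adjusted p = 2.0e-04, in KO2. Zfp239 (ENSMUSG00000042097, chromosome 6, 117839061 to 117850252, plus strand) went from 23.4 and 19.9 to 14.8 and 19.0 in WT, but from 16.4 and 16.7 to 27.6 and 30.0 in KO1 and from 20.3 and 16.5 to 27.9 and 29.7 in KO2. It fell in WT and rose in both clones, an interaction of 1.15, SE 0.14, adjusted p = 1.3e-10, and 1.0, SE 0.14, adjusted p = 1.2e-08.

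Zfp367 (ENSMUSG00000044934, chromosome 13, 64280832 to 64301016, minus strand) did the reverse. WT had 23.4 and 25.4 CPM at 0 h, 26.1 and 27.4 at 3 h, 44.2 and 43.7 at 6 h and 56.5 and 63.3 at 9 h. KO1 had 27.1 and 28.8 CPM at 0 h, 16.7 and 16.1 at 3 h, 28.3 and 28.1 at 6 h and 35.2 and 36.6 at 9 h, and KO2 28.6 and 26.5 CPM at 0 h, 17.8 and 19.2 at 3 h, 32.8 and 28.7 at 6 h and 41.4 and 37.5 at 9 h. The first 3 h lowered it in the clones and not in WT, an interaction of -0.91, SE 0.13, adjusted p = 8.1e-09, in KO1 and -0.71, SE 0.13, adjusted p = 5.0e-06, in KO2. From 3 h on all genotypes rose by a like factor, 2.24-fold, 2.19-fold and 2.13-fold, and the gap at 3 h was still there at 9 h.

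Zfp472 (ENSMUSG00000053600, chromosome 17, 33184788 to 33198207, plus strand), a KRAB gene, differed in both windows. WT had 18.6 and 16.9 CPM at 0 h, 11.4 and 11.5 at 3 h, 14.2 and 15.3 at 6 h and 15.8 and 16.9 at 9 h. KO1 had 22.1 and 20.3 CPM at 0 h, 26.2 and 26.2 at 3 h, 17.6 and 16.4 at 6 h and 15.1 and 14.4 at 9 h, and KO2 19.9 and 22.1 CPM at 0 h, 22.6 and 24.5 at 3 h, 18.1 and 17.8 at 6 h and 15.5 and 14.4 at 9 h. By 3 h it fell in WT and rose in KO1, and its change in KO2 did not pass (log2 0.17, SE 0.10, adjusted p = 0.13). The interactions were 0.94, SE 0.15, adjusted p = 2.2e-07, in KO1 and 0.80, SE 0.15, adjusted p = 1.3e-05, in KO2 first, and -1.34, SE 0.15, adjusted p = 7.5e-12, and -1.17, SE 0.15, adjusted p = 1.3e-09, later. At 9 h all 6 libraries lay between 14.4 and 16.9 CPM. Zfp53 fell by 3 h in WT, to 52.4 and 54.8, and went from 58.9 and 56.5 to 67.0 and 67.5 in KO2 (interaction log2 0.87, SE 0.08, adjusted p = 2.9e-16) and from 64.2 and 66.2 to 69.3 and 71.4 in KO1 (interaction log2 0.76, SE 0.08, adjusted p = 9.4e-14). The rise itself passed in KO2 and not in KO1 (adjusted p = 0.072, edgeR).

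**Figure D5:**
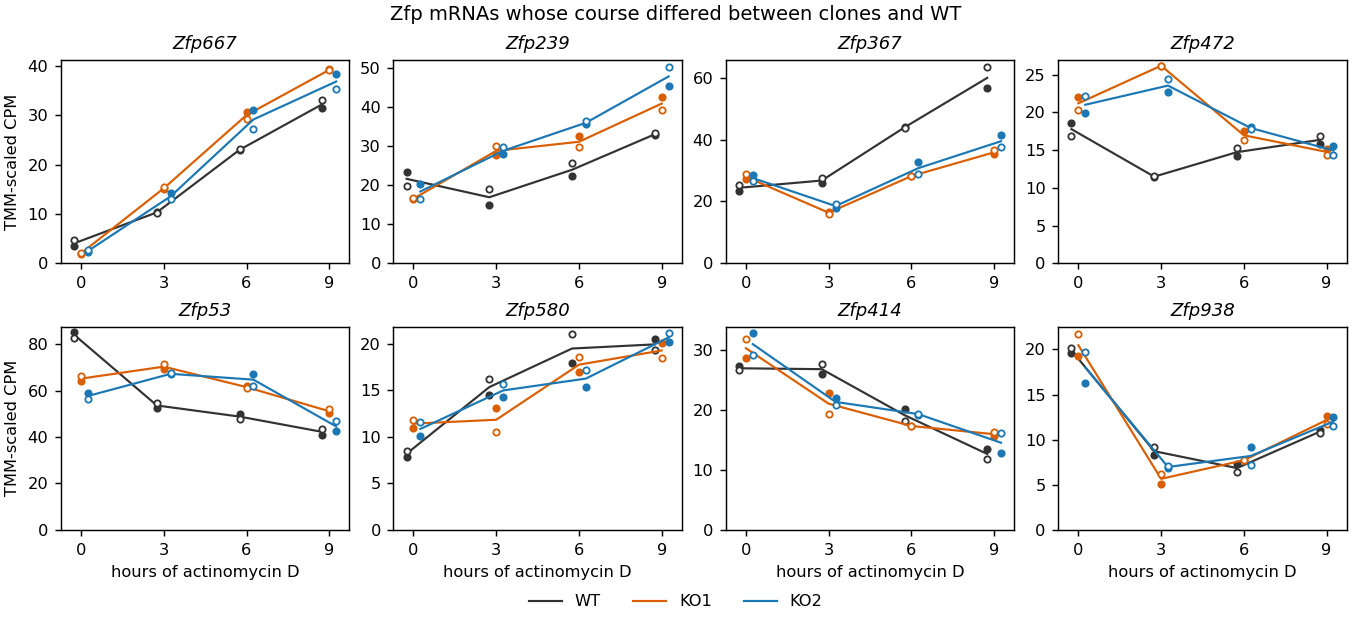
TMM-scaled CPM (y axis, from 0) of 8 Zfp mRNAs whose change over time differed between a clone and WT, against hours of actinomycin D (x axis); points are single libraries, filled and open for the 2 libraries of a group, and lines join group means. At 3 h Zfp472 stands at 11.4 and 11.5 CPM in WT and 26.2 and 26.2 in KO1, and Zfp367 at 26.1 and 27.4 and 16.7 and 16.1.

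Further cases passed in 1 clone or in both. Zfp938 fell from 19.2 and 21.7 to 5.12 and 6.20 CPM in KO1 and from 19.6 and 20.2 to 8.28 and 9.17 in WT (log2 -0.66, SE 0.19, adjusted p = 0.0053), a call lost without KO1 3 h replicate 1 (edgeR adjusted p = 0.071), and it rose more afterwards (log2 0.78, SE 0.20, adjusted p = 0.0021). Zfp580 rose in WT from 7.87 and 8.51 to 14.5 and 16.2 and went from 11.0 and 11.9 to 13.2 and 10.5 in KO1 (log2 -0.86, SE 0.18, adjusted p = 9.1e-05). Zfp324 rose late in WT, to 26.5 and 29.1 from 19.8 and 19.9, and fell in KO1, to 23.2 and 20.1 from 26.6 and 27.1 (log2 -0.80, SE 0.13, adjusted p = 1.2e-06). Zfp414 (ENSMUSG00000073423, chromosome 17, 33848064 to 33850753, plus strand) went from 26.1 and 27.6 at 3 h to 13.6 and 11.8 at 9 h in WT, and from 22.8 and 19.4 to 15.7 and 16.3 in KO1 (log2 0.68, SE 0.15, adjusted p = 2.1e-04); 21.6% of its 100-base windows occur in other genes. Over the first 3 h it fell in both clones, while its WT change did not pass (log2 -0.01, adjusted p = 0.95), with interactions of -0.52, SE 0.14, adjusted p = 0.0016, in KO1 and -0.53, SE 0.14, adjusted p = 0.0014, in KO2. From 3 h to 9 h its interaction in KO2 was 0.53, a call that depended on single libraries.

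Other zinc-finger families were set beside the class by symbol alone. Of all genes 38.6% rose and 33.5% fell by 3 h in WT, and 34.2% rose and 31.6% fell from 3 h to 9 h. Of 34 Zbtb genes, which pair fingers with a BTB domain, 15 fell and 15 rose by 3 h in WT, and 21 rose and 5 fell from 3 h to 9 h (median 0.63). Of 21 Zkscan or Zscan genes, with a SCAN domain, 8 fell and 10 rose early, and 17 rose and 2 fell late (median 0.79). Of 11 Klf genes 6 fell and 3 rose early and 8 rose and 1 fell late (median 0.62). The 57 tested Zfp genes under the threshold gave 20 lower and 6 higher early (median -0.42), and 22 higher and 6 lower late (median 0.45). More genes rose than fell late in each of these families in WT, and no difference between the families was tested.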

How the data were processed

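Counts of reads per gene for 24 libraries were used as the authors deposited them. Per the file headers they were made with featureCounts 1.6.3 on paired reads without use of strand, with an Ensembl release 105 annotation, and the submitters' processing notes name the build GRCm39. A directional kit was used per the labels' protocols, but the counts did not use strand. Reads of overlapping genes on opposite strands therefore cannot be told apart in them. An equal amount of ERCC spike-in was added to each total RNA per the labels; ERCC rows stayed out of library sizes and tests.

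Gene names, biotypes and transcripts came from GENCODE M21 (GRCm38), coordinates from the files. The 242 genes and all lists were chosen with earlier results of these data known. One model of 12 groups was fitted to 16167 genes in edgeR 4.0.16 (R 4.3.3; filterByExpr with a minimum count of 10, TMM scaling, quasi-likelihood tests, Benjamini-Hochberg adjustment over all tested genes, threshold 0.05). Levels are TMM-scaled CPM, and the course adds 0.5 before logs. Named genes were the 5 highest by mean CPM, the largest called changes in each contrast and all members of the role lists; Zfp292, Zfp703, Zfp846 and members listed by name as a group were named after their values were seen. Finger and KRAB patterns were counted in translated GENCODE coding sequences, and the KRAB pattern was widened once results were known. Alternatives were DESeq2 1.42.0, other scalings, no filter, the contrast's libraries alone, a replicate block and each library left out. The fits were tested on simulated data.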

Additional observations from a re-analysis of the deposited data

Results flagged for a closer look

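Each value here is the difference between a clone's change and that of WT in log2 units, and each passed the interaction test (edgeR, Benjamini-Hochberg adjusted over all tested genes). Both clones are set against the same WT libraries. Over the first 3 h in KO1 the genes that changed more upward were Zfp667 (1.55), Zfp239 (1.15) and Zfp472 (0.94), and those that changed more downward were Zfp367 (-0.91), Zfp580 (-0.86) and Zfp938 (-0.66). Over the same hours in KO2 they were Zfp667 (1.09), Zfp239 (1.0) and Zfp53 (0.87) upward, and Zfp367 (-0.71), Zfp608 (-0.57) and Zfp839 (-0.55) downward.

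From 3 h to 9 h in KO1 the upward differences were those of Zfp938 (0.78), Zfp414 (0.68) and Zfp945 (0.53), and the downward ones those of Zfp472 (-1.34), Zfp324 (-0.80) and Zfp651 (-0.77). In KO2 they were Zfp963 (0.75), Zfp653 (0.61) and Zfp414 (0.53) upward, and Zfp472 (-1.17), Zfp651 (-0.79) and Zfp691 (-0.56) downward.

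Of the genes named here, Zfp651, Zfp667 and Zfp963 were below 5 CPM at 0 h in each genotype and passed the threshold through later times. Zfp963 and Zfp653 rest on low levels. Zfp963 had 4.58 and 4.94 CPM at 3 h and 6.35 and 6.62 at 9 h in WT, and 3.91 and 3.82 and then 8.95 and 8.71 in KO2. Of its 100-base windows 38.0% occur in transcripts of other genes, and its call was lost with DESeq2 (adjusted p = 0.051). Zfp653, with 8.35 and 7.76 at 3 h and 6.30 and 5.75 at 9 h in WT and 7.89 and 7.34 and then 8.73 and 8.71 in KO2, has 20.8% of such windows. Zfp945 rested on WT 3 h replicate 2, without which its difference was 0.27 (edgeR adjusted p = 0.45). The calls of Zfp839, Zfp651, Zfp691, Zfp938 and, in KO2, Zfp414 were each lost in 1 or more fits without a library.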

How the results depend on the processing

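The direction of each count of calls over time within a genotype was the same under DESeq2, RLE size factors, no filter and the contrast's own libraries. Scaling moved the counts most. With library totals 26 Zfp mRNAs fell from 3 h to 9 h in WT in place of 42, 29 in KO1 in place of 58 and 34 in KO2 in place of 54. Spike-in totals gave 27 falls in KO1 in that window, and in KO2 29 rises and 179 falls over the first 3 h and 56 rises and 112 falls later, with the late median reversed to -0.15. Zfp330 at 3 h in WT turned from 0.05 to -0.051 with library totals and to -0.0066 with the contrast's own libraries. At 0 h KO2 against WT gave 27 higher and 7 lower with the contrast's own libraries, in place of 41 and 12. KO2 against KO1 gave 7 and 7 with DESeq2 in place of 15 and 12, 7 lower with the contrast's own libraries and 7 higher with no filter. Interaction calls over the first 3 h moved with library totals to 9 downward in KO1 and to 59 upward and 9 downward in KO2. The shares of all genes moved to 9.28% downward in KO1, and to 18.8% upward and 8.03% downward in KO2. From 3 h to 9 h the Zfp calls moved in KO1 to 19 downward with DESeq2, 23 with RLE and 23 with no filter, in place of 35, and in KO2 to 16 downward with DESeq2 and 7 upward with no filter, in place of 27 and 11. Over all genes the downward share went in KO1 from 10.1% to 6.07% with DESeq2 and 8.06% with RLE. In KO2 it went from 10.8% to 6.17% with DESeq2.

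Leaving out 1 library at a time leaves its group with a single sample, assumed to vary like the others. Ranges were 13 to 17 for KO1 below WT at 0 h (lowest without WT 0 h replicate 2), 7 to 12 for KO2 below WT (same library), 5 to 10 higher (lowest without KO1 0 h replicate 1 or KO2 0 h replicate 1) and 7 to 10 lower (without KO2 0 h replicate 2) for KO2 against KO1. For interactions they were 9 to 16 downward in KO1 (without KO1 3 h replicate 2) and 8 to 12 in KO2 (without WT 0 h replicate 2) over the first 3 h. From 3 h to 9 h they were 4 to 7 upward (without WT 3 h replicate 2) and 19 to 26 downward (without KO1 3 h replicate 2) in KO1, and 4 to 10 upward in KO2 (without KO2 3 h replicate 2). The cause of these moves was not tested.

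Replicate numbers did not pair the libraries: same-numbered deviations correlated at -0.032 to 0.050 over 66 pairs of groups. With the replicate block 82 rose and 107 fell in WT by 3 h, and 43 were higher and 20 lower in KO1 at 0 h, and no count moved by over 1.5 times. Spike-in scaling was not run for contrasts with WT, whose ERCC counts were 120 to 257 per library.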
